A study of Rattus norvegicus with 40 samples.

Results

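The genes described are 8 targets of the transcription factor NRF2 that defend cells against oxidants and electrophiles: Nqo1, Gclc, Gclm, Txnrd1, Srxn1, Hmox1, Gsr and Osgin1. They were chosen by symbol, and all 8 were found among the 17337 genes counted in every library. Their levels are given in CPM, a gene's share of the counted read pairs of a library, scaled between libraries by trimmed means (TMM). The libraries measured polyadenylated RNA of rat liver.

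Male Fischer 344 rats, 7 weeks old when treatment began, received 50 mg/kg of diethylnitrosamine (DEN), a liver carcinogen, into the peritoneum once a week. Rats were sampled after 8 or 14 weeks of injections, or at 20 weeks, when injections had stopped after week 14. Non-tumoral (NT) liver was sequenced from 4 rats at each time, and a pair of tumor nodules from each of the same rats at 14 and 20 weeks. Age-matched untreated rats (no DEN) gave 4 livers at each time, and whether they received the vehicle is not stated in the sources used here. The counts of a rat's nodules were summed, which leaves n = 4 rats in every group and tissue. Each sample is a piece of bulk tissue, in which a lower share of a cell type and less RNA per cell cannot be told apart.

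Counted pairs per library ranged from 20528515 to 160622633 over 40 libraries, with a median of 30477421, and the deepest library (NT liver of rat H26, 20 weeks) was 4.08-fold deeper than the second. The lowest count of any of the 8 genes in any rat was 104, for Nqo1. In the labels 2 of the 4 DEN rats at 8 weeks, and 1 of the 4 at 14 and at 20 weeks, have numbers that begin with F. All other rats, including every no DEN rat, have numbers that begin with H. The labels do not say what the letters mean. Both nodule libraries of rat F06 stood apart, with 34.48% and 28.16% of pairs assigned to no annotated feature against 21.49% to 26.3% in the other 38 libraries, and nodule 1 of F06 was the shallowest library. All 6 hepatocyte markers were detected in every group. Their summed level, most of it albumin (Alb), was 269500 to 314700 CPM in no DEN liver, 179500 to 220400 CPM in NT liver at 14 weeks and 154400 to 219200 CPM in nodules. Its members differed: in nodules at 14 and 20 weeks Alb fell by 0.88 and 0.81 on the log2 scale and Ttr by 1.01 and 0.85, while Apoa1 alone rose, by 0.98 and 1.31. Serpina1 fell past the threshold only at 14 weeks (-0.73, and -0.50 at 20 weeks), Cps1 only at 20 weeks (-1.21, and -0.93 at 14 weeks) and Tf at neither (-0.34 and -0.11).

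NRF2, encoded by Nfe2l2, is held in the cytoplasm by KEAP1, which directs it to a ubiquitin ligase built on CUL3. Oxidants and electrophiles modify cysteines of KEAP1, NRF2 then escapes degradation, pairs with a small MAF protein in the nucleus and binds antioxidant response elements near its target genes, while BACH1 competes for the same elements. In the liver the pathway is known for detoxification and for its activation in chemically induced preneoplastic foci.

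RefSeq promoter windows on the build GRCr8, from 250 bases before to 50 after a transcription start, were found for 6 of the 8 genes, all but Hmox1 and Gsr. The core of the antioxidant response element was searched as TGACNNNGC on both strands. It was found in a window of 2 of the 6 genes (33.3%), Gclm and Txnrd1, and in a window of 3602 of all 27457 genes (13.1%). Counted by window, 2 of 7 windows of the members (28.6%) and 4038 of all 33469 (12.1%) held it. Neither match contains the AP-1 motif TGACTCA. Both windows are shown because they hold the only matches among the members, with the matched bases in capitals. Each match lies on the strand opposite to the gene, so that its reverse complement is printed: TGACTAAGC for Gclm, whose first printed base lies at -172 from the start, and TGACAAAGC for Txnrd1, at -78. The Gclm window is chr2:213031885-213032184 on the plus strand, and the Txnrd1 window, the second of 2 for this gene, is chr7:22755855-22756154 on the minus strand. A match is a string of letters and was not tested for binding.
Gclm: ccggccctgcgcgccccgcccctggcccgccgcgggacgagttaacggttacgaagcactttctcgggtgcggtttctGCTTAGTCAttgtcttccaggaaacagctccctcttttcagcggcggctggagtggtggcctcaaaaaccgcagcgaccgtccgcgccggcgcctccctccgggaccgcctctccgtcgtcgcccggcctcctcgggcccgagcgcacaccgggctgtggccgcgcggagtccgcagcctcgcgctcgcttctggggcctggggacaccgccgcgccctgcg
Txnrd1: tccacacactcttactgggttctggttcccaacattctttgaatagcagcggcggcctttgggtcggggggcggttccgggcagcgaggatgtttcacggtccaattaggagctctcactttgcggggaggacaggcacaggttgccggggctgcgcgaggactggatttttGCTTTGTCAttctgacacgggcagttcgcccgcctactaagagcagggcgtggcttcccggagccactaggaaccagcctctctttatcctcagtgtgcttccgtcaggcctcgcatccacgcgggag

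Nqo1, Srxn1, Txnrd1, Gclc, Gclm and Gsr were higher in NT liver at 14 weeks than without DEN, and all of these except Gsr were also higher by at least 2-fold at 20 weeks. Txnrd1 lay just past 2-fold at 20 weeks (log2 fold change 1.045) and below it in some fits that left out 1 rat, for example 0.88 without NT rat H26. The number of genes that passed at 20 weeks was also unstable, as given below. All 8 genes were higher in nodules than in no DEN liver at 20 weeks, by the nodule threshold given below, past which 23.6% of all genes tested rose. Hmox1 and Osgin1 did not pass a threshold in NT liver at 14 weeks, where the other 6 did, and their largest log2 fold change in any comparison with no DEN liver was 0.87. For NT over no DEN liver the strict threshold asks for an absolute log2 fold change of 1 or more with an adjusted p no higher than 0.01. The nodule threshold, read in every comparison of a pair of groups, uses 0.5 and 0.05. Tests were edgeR's quasi-likelihood F test with Benjamini-Hochberg adjustment over all genes tested.

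**Figure D1:**
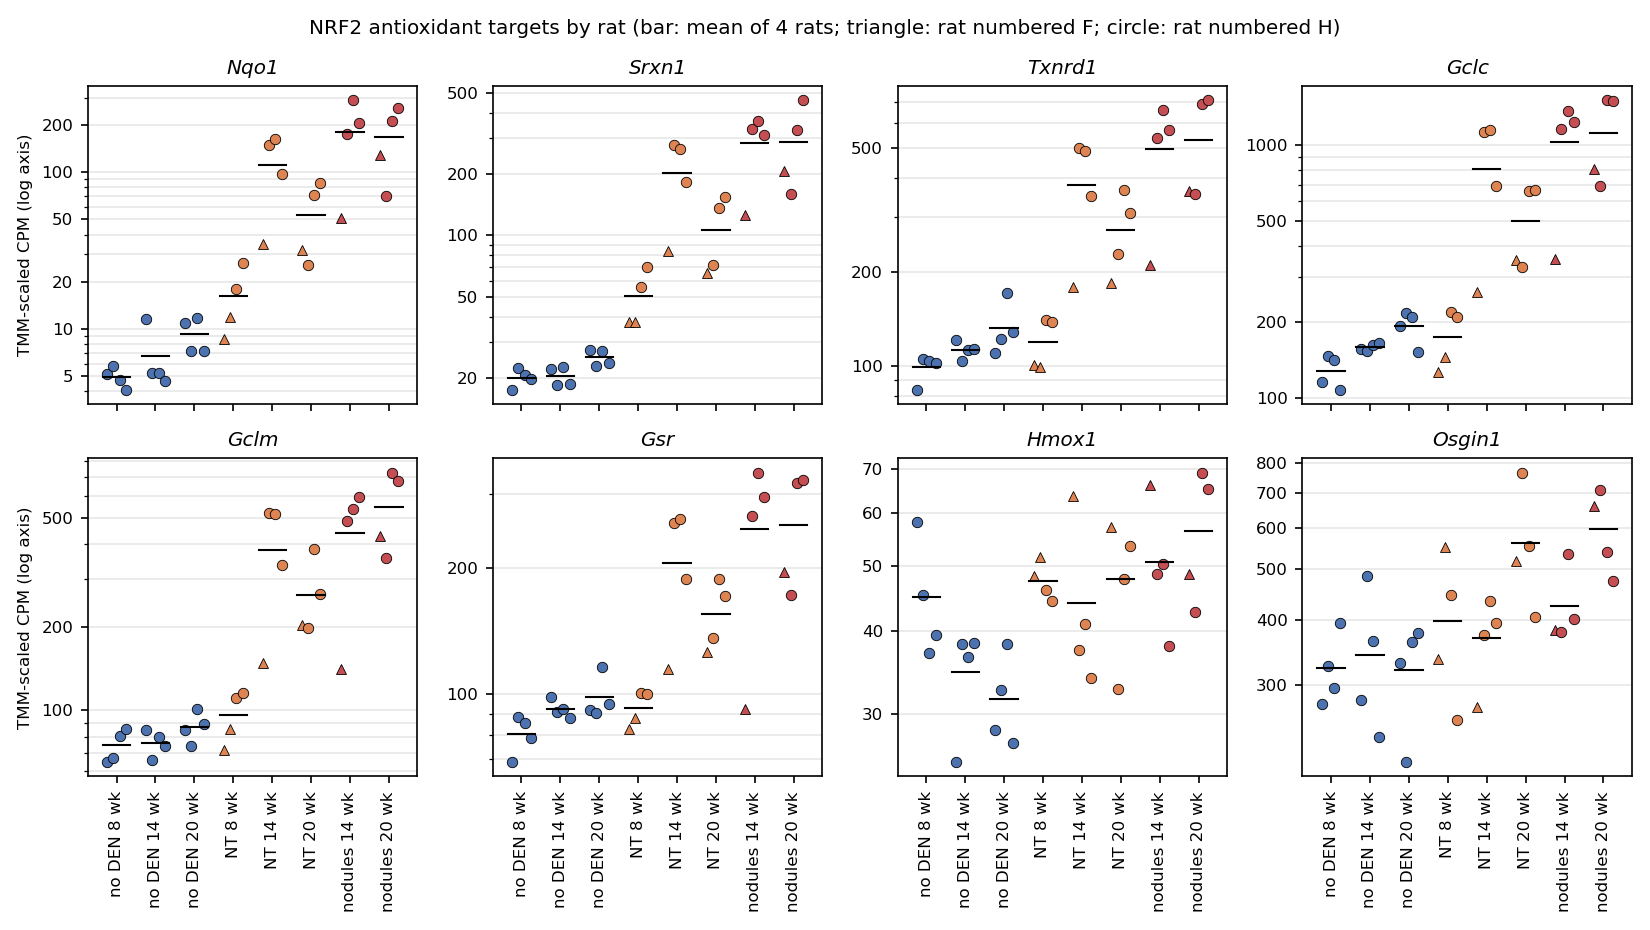
TMM-scaled CPM on log axes of the 8 genes in each rat, by group (blue no DEN, orange NT liver, red summed nodules), with the mean of 4 rats as a bar, triangles for rats numbered F and circles for rats numbered H. At 14 weeks Nqo1 lies at 34.6 CPM or more in NT liver and at 11.6 CPM or less without DEN, while Hmox1 and Osgin1 overlap between these groups.

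NQO1 reduces quinones by a 2-electron transfer that avoids radicals. In no DEN liver the Nqo1 level was 5.16, 5.75, 4.73 and 4.09 CPM at 8 weeks, 11.6, 5.21, 5.20 and 4.61 CPM at 14 weeks, and 10.8, 7.21, 11.7 and 7.26 CPM at 20 weeks. In NT liver it was 8.66, 11.9, 18 and 26.4 CPM at 8 weeks (rats F09, F10, H17 and H18), 34.6, 149, 164 and 97.6 CPM at 14 weeks (F06, H21, H22 and H23), and 31.6, 25.5, 71.3 and 85.4 CPM at 20 weeks (F03, H25, H26 and H28). Every NT value lay above all no DEN values of the same week, and rat F06 stood far below the other rats at 14 weeks. The log2 fold change of Nqo1 was 1.72 (SE 0.32, edgeR adjusted p = 0.00321) at 8 weeks, 4.10 (SE 0.58, adjusted p = 0.000881) at 14 weeks and 2.54 (SE 0.45, adjusted p = 0.00727) at 20 weeks. In nodules the level was 51.2, 175, 287 and 206 CPM at 14 weeks and 129, 70.7, 212 and 256 CPM at 20 weeks, in the same order of rats, again above all no DEN values. This gave the largest log2 fold change of the 8 genes against no DEN liver at both times, 4.73 (SE 0.55) and 4.14 (SE 0.39).

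Srxn1 encodes sulfiredoxin, which restores over-oxidised peroxiredoxins. Its level in no DEN liver ran from 17.5 to 27.2 CPM over the 12 rats. In NT liver it was 37.4, 37.5, 55.7 and 70.1 CPM at 8 weeks, 83.4, 278, 264 and 182 CPM at 14 weeks, and 65.2, 71.7, 136 and 154 CPM at 20 weeks. No NT value fell among the no DEN values, and the rats numbered F were the lowest of their NT group at each time. For Nqo1 this held at 8 and 14 weeks, while H25 was the lowest at 20 weeks. The log2 fold change of Srxn1 was 1.32 (SE 0.20, edgeR adjusted p = 0.00112) at 8 weeks, 3.34 (SE 0.38) at 14 weeks and 2.10 (SE 0.30) at 20 weeks. In nodules it stood at 127, 333, 365 and 310 CPM at 14 weeks and at 207, 159, 330 and 459 CPM at 20 weeks (log2 fold changes 3.77, SE 0.31, and 3.48, SE 0.30).

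Txnrd1 encodes the cytosolic thioredoxin reductase, which keeps thioredoxin reduced. NT liver held 100, 98.8, 140 and 138 CPM of Txnrd1 at 8 weeks, against 83.8 to 105 CPM without DEN, and the groups overlapped (log2 fold change 0.27, SE 0.14, edgeR adjusted p = 0.146). At 14 weeks the NT values were 178, 500, 490 and 350 CPM against 104 to 121 CPM without DEN, and at 20 weeks 184, 229, 366 and 308 CPM against 110 to 171 CPM. Both later comparisons separated the groups, with log2 fold changes of 1.79 (SE 0.29) and 1.04 (SE 0.22, edgeR adjusted p = 0.00848). Nodules stood at 211, 539, 660 and 570 CPM at 14 weeks and 364, 355, 693 and 710 CPM at 20 weeks, above all no DEN values.

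GCLC and GCLM are the catalytic and the modifier subunit of glutamate-cysteine ligase, the rate-limiting enzyme of glutathione synthesis. Gclc stood at 126, 145, 218 and 210 CPM in NT liver at 8 weeks, overlapping the 108 to 147 CPM without DEN. At 14 weeks the NT values were 262, 1133, 1150 and 691 CPM against 153 to 165 CPM, and at 20 weeks 350, 331, 659 and 664 CPM against 152 to 216 CPM. Neither later pair of groups overlapped. The log2 fold change of Gclc was 2.38 (SE 0.43, edgeR adjusted p = 0.00217) at 14 weeks and 1.39 (SE 0.26, adjusted p = 0.00558) at 20 weeks. Gclm followed closely, with 149, 520, 517 and 335 CPM in NT liver at 14 weeks (65.8 to 84.8 CPM without DEN) and 203, 199, 383 and 265 CPM at 20 weeks (73.9 to 101 CPM without DEN). Its log2 fold changes were 2.35 (SE 0.37) and 1.60 (SE 0.20). In nodules at 20 weeks Gclc reached 804, 694, 1508 and 1497 CPM and Gclm 427, 357, 726 and 677 CPM.

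GSR, glutathione reductase, returns oxidised glutathione to its reduced form. Gsr moved least of the 6 genes that passed at 14 weeks, from 88.0 to 98.3 CPM without DEN to 115, 256, 261 and 188 CPM in NT liver (log2 fold change 1.19, SE 0.23, edgeR adjusted p = 0.00269). At 20 weeks NT liver held 126, 136, 188 and 171 CPM against 90.4 to 116 CPM, a separation that passed the nodule threshold and not the strict one (0.67, SE 0.14). In nodules at 14 weeks rat F06, with 92.2 CPM, lay within the no DEN range, while the other 3 rats stood at 265 to 336 CPM (log2 fold change of all 4 rats 1.39, SE 0.32).

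HMOX1, heme oxygenase, breaks down heme, and is abundant in macrophages that clear red cells. Hmox1 stood at 58.2, 45.3, 37.1 and 39.4 CPM without DEN at 8 weeks and at 48.3, 51.6, 46.0 and 44.3 CPM in NT liver (log2 fold change 0.07, SE 0.13). At 14 weeks the NT values were 63.7, 37.5, 41.0 and 33.95 CPM, and F06, the lowest rat for the 6 genes above, was the highest for Hmox1. Without DEN they were 25.4, 38.2, 36.6 and 38.3 CPM, so that the groups overlapped (0.38, SE 0.22, edgeR adjusted p = 0.170). At 20 weeks NT liver held 57.3, 32.7, 47.9 and 53.7 CPM against 28.4, 32.6, 38.2 and 27.2 CPM, passing the nodule threshold with overlapping values (0.61, SE 0.18, edgeR adjusted p = 0.0290). This call was lost in 6 of the 8 fits that left out 1 rat (edgeR adjusted p 0.0593 to 0.0876), among them the one without F03 (0.51, adjusted p = 0.0670). Nodules stood at 66.3, 48.6, 50.4 and 38.0 CPM at 14 weeks (0.54, SE 0.19, edgeR adjusted p = 0.0406, overlapping by a narrow margin) and at 48.7, 42.7, 69.0 and 65.3 CPM at 20 weeks, above all no DEN values (0.81, SE 0.16, edgeR adjusted p = 0.00244). The 14-week call in nodules was lost without F06 (0.40, edgeR adjusted p = 0.0426, below the fold threshold), without H21 (adjusted p = 0.0572) or H22 (0.0612), and without any single no DEN rat (adjusted p 0.0613 to 0.102).

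The summed level of 7 macrophage markers, all detected in every group, was 699 CPM in NT liver of rat F06 and 279.5 to 364.4 CPM in the other 3 rats at 14 weeks, and 601.8 CPM against 294.2 to 361 CPM in their nodules. In nodules at 20 weeks it was 408.7 CPM in F03 and 300.8 to 374.2 CPM in the others. The rats numbered F also had the highest sums in NT liver at 8 weeks (654.7 and 669.2 CPM, against 524.3 and 552 CPM) and at 20 weeks (625.2 CPM, against 340.9 to 417.5 CPM). Of 3 erythroid genes the sum in nodules at 14 weeks was 729.6 CPM in F06 and 100.1 to 159.4 CPM in the others. Without DEN the macrophage sum ran from 243.4 to 710.9 CPM, with the highest in rat H05 at 8 weeks, which also had the highest Hmox1 level of that group. Marco and Clec4f made up the largest part of the sum, and single markers differed from it: Cd68 passed the nodule threshold over no DEN liver in all 5 comparisons, with log2 fold changes of 0.65, 0.60 and 0.62 in NT liver at 8, 14 and 20 weeks and 0.83 and 0.60 in nodules at 14 and 20 weeks. Adgre1 passed in NT liver (0.71) and nodules (0.51) at 20 weeks, and the other 5 passed in none of the 5 comparisons. In nodules at 14 and 20 weeks Vsig4 gave -0.46 and -0.43, Clec4f -0.26 and -0.07, Cd163 -0.21 and 0.23 and Marco 0.62 and -0.43. Csf1r gave 0.39 and 0.45, short of the fold threshold, and its nodule values lay above all no DEN values of the same week. The part of these cells in the Hmox1 values was not tested.

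Osgin1 encodes an oxidative stress-induced growth inhibitor. Its values were spread widely without DEN, at 276, 326, 296 and 394 CPM at 8 weeks, 280, 484, 364 and 238 CPM at 14 weeks, and 330, 213, 362 and 376 CPM at 20 weeks. NT liver overlapped them at 8 weeks (336, 552, 446 and 256 CPM, log2 fold change 0.29, SE 0.21) and at 14 weeks (272, 374, 435 and 394 CPM, 0.15, SE 0.23). At 20 weeks the NT values were 517, 765, 553 and 405 CPM and the nodules 662, 709, 539 and 474 CPM, both above every no DEN value of that week. These differences passed the nodule threshold, with log2 fold changes of 0.81 (SE 0.21, edgeR adjusted p = 0.0209) in NT liver and 0.87 (SE 0.20, edgeR adjusted p = 0.00485) in nodules. At 14 weeks the nodules did not pass (0.29, SE 0.22, edgeR adjusted p = 0.285).

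**Figure D2:**
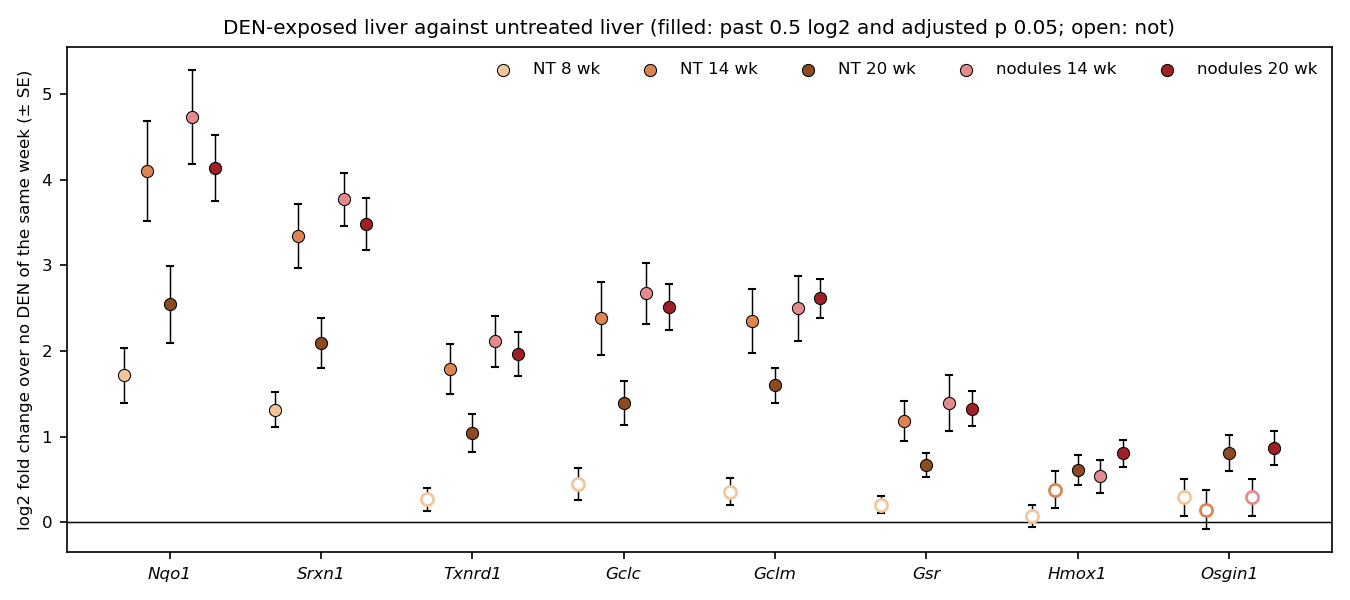
Log2 fold change (with SE, from edgeR) of each gene over no DEN liver of the same week, in NT liver at 8, 14 and 20 weeks and in nodules at 14 and 20 weeks, filled where it passed the nodule threshold. Nqo1 and Srxn1 pass in all 5 comparisons, from 1.72 and 1.32 in NT liver at 8 weeks upwards, and no Hmox1 or Osgin1 value exceeds 0.87.

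Counted together, 2 of the 8 genes, Nqo1 and Srxn1, passed the strict threshold upwards in NT liver at 8 weeks, where 7.91% of all genes tested passed, and the same number passed the nodule threshold (21.7% of all genes). At 14 weeks 6 passed each threshold (15.2% and 32.6% of all genes). At 20 weeks 5 passed the strict threshold (5.22% of all genes) and 8 the nodule threshold (18.1%). In nodules 7 passed at 14 weeks (39.1% of all genes) and 8 at 20 weeks (38.8%), and none of the 8 genes fell past a threshold in these comparisons. The median log2 fold change of the 8 genes was 0.32, 2.07 and 1.22 in NT liver at 8, 14 and 20 weeks and 2.31 and 2.24 in nodules at 14 and 20 weeks, and that of all genes tested lay between -0.0078 and 0.020. The strict count at 20 weeks was the least stable: it fell to 2 without NT rat H26, 3 without H28, 2 without no DEN rat H13, 2 without H14, 3 without H15 and 1 without H16. At 8 weeks it was 1 without NT rat H17 or without no DEN rat H07, when Nqo1 was lost (edgeR adjusted p = 0.0112 and 0.0131). The strict calls over all genes at 20 weeks, 565 with all rats, also varied with single rats left out, over the range given in the last paragraph.

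Leaving out the rats numbered F compared rats of the same letter only. Among these, 5 genes passed the nodule threshold at 8 weeks, against 17.8% of all genes in the same fit (21.7% with all rats), and Gclc rose by 0.76 (edgeR adjusted p = 0.00216), Gclm by 0.61 and Txnrd1 by 0.51. The strict counts stayed at 2, 6 and 5 (5.91%, 16% and 4.32% of all genes), and the count at the nodule threshold at 20 weeks was 7 in place of 8, without Hmox1 (16.4% of all genes). Nqo1 then rose by 2.19, 4.38 and 2.73 in NT liver at 8, 14 and 20 weeks. In nodules at 14 weeks, without F06, 6 genes passed (41.5% of all genes), and the log2 fold change was 5.07 for Nqo1, 4.04 for Srxn1 and 1.69 for Gsr.

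The change in NT liver between weeks was tested as the interaction of treatment and week. From 8 to 14 weeks, 6 of the 8 genes passed an adjusted p of 0.05, all upwards (8.96% of all genes passed). The treatment effect grew by a log2 fold change of 2.39 for Nqo1 (SE 0.69, edgeR adjusted p = 0.0462), 2.02 for Srxn1 (SE 0.43, adjusted p = 0.0139) and 1.997 for Gclm (SE 0.41, adjusted p = 0.0117). For Gclc it grew by 1.94, for Txnrd1 by 1.52 and for Gsr by 0.98, while Hmox1 (0.31, SE 0.27) and Osgin1 (-0.14, SE 0.34) did not pass. The count was 3 without NT rat F10, H21 or H22, when Nqo1, Gclc and Gsr were lost with edgeR adjusted p values of 0.0507 to 0.0958. The Nqo1 call was lost in 12 of the 16 fits that left out 1 rat and with no filter on low counts (edgeR adjusted p = 0.0693), and the Gsr call in 9 of the 16. Without the rats numbered F, which were 2 at 8 and 1 at 14 weeks, the same 6 genes passed (edgeR adjusted p = 0.0187 for Nqo1), and 1086 over all genes. From 14 to 20 weeks, when DEN was no longer given, the estimates for the same 6 genes were negative, from -1.55 for Nqo1 (SE 0.73, edgeR adjusted p = 0.299) to -0.51 for Gsr (SE 0.28), and 0 of 8 passed (0.738% of all genes). Srxn1 alone had an unadjusted p under 0.05, DESeq2 also passed 0, and without rat F06 at 14 weeks Srxn1 (-1.49, edgeR adjusted p = 0.0421) and Gsr (-0.70, adjusted p = 0.0468) passed. In nodules the effects at 20 and 14 weeks differed for 0 of the 8 genes (0.0862% of all genes), with log2 differences from -0.60 (SE 0.64) for Nqo1 to 0.57 (SE 0.31) for Osgin1 and no unadjusted p under 0.05. DESeq2 also gave 0.

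In no DEN liver the genes were compared between ages as a background. By edgeR 0 of 8 passed from 8 to 14 weeks (0% of all genes) and 0 of 8 from 14 to 20 weeks (0%), and DESeq2 gave 0 of 8 both times. Over all genes 1038 and 670 had an unadjusted p under 0.05, and DESeq2 passed 20 and 18. The largest log2 difference was 0.49 for Nqo1 from 14 to 20 weeks (SE 0.34). At an unadjusted p under 0.05, Gclc (0.30), Txnrd1 (0.17) and Gsr (0.19) were higher at 14 than at 8 weeks, and Gclc (0.29) and Srxn1 (0.31) higher at 20 than at 14 weeks.

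Nodules and NT liver came from the same rats, so the comparison between them was made with and without the rat as replicate block. At 14 weeks 0 of 8 genes passed either way (0% of all genes in both fits), with log2 fold changes from 0.18 to 0.66 without the block. At an unadjusted p under 0.05 there were 0 of 8 genes without the block and 5 with it (Nqo1, Gclc, Txnrd1, Srxn1 and Hmox1), and DESeq2 gave 0. Over all genes 1348 without the block and 2518 with it had an unadjusted p under 0.05, and DESeq2 passed 35. At 20 weeks 0 of 8 passed without the block (0% of all genes) and 6 with it, all upwards (14.7% of all genes). With the block, Nqo1 was higher in nodules by a log2 fold change of 1.63 (SE 0.10, edgeR adjusted p = 2.3e-07), Srxn1 by 1.39 (SE 0.10), Gclc by 1.13 (SE 0.11), Gclm by 1.02 (SE 0.11), Txnrd1 by 0.91 (SE 0.11) and Gsr by 0.63 (SE 0.10, edgeR adjusted p = 0.000699). Without it the same genes had log2 fold changes of 0.67 to 1.61 and edgeR adjusted p values of 0.102 to 0.133, and all 6 had an unadjusted p under 0.05. DESeq2 without the block passed 6 of the 8, and 902 over all genes, where 2767 had an unadjusted p under 0.05 by edgeR. The fit with all 8 groups passed 5 of the 8, and 1096 over all genes. As groups of 4, nodules and NT liver did not overlap for Gclc and Srxn1. Hmox1 (0.21, SE 0.12) and Osgin1 (0.08, SE 0.11) did not pass with the block. Whether the difference between nodules and NT liver changed from 14 to 20 weeks was not tested.

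**Figure D3:**
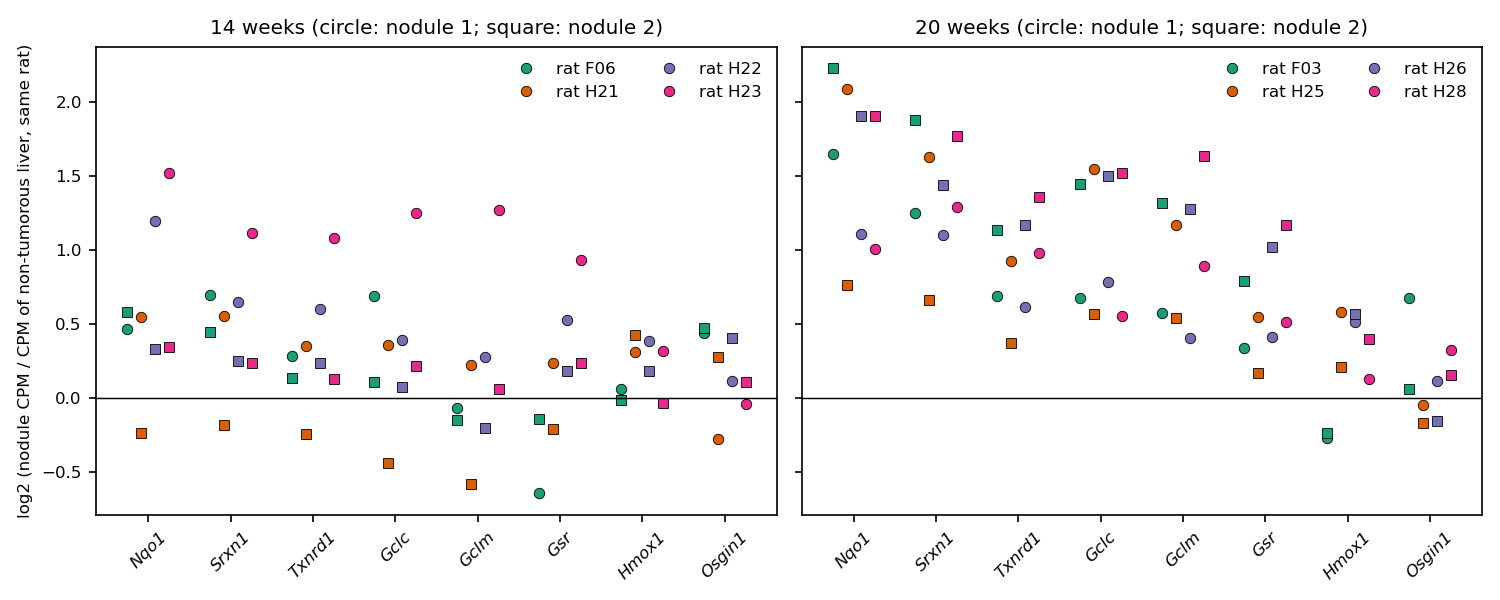
Log2 ratio of the CPM of each nodule to the CPM of NT liver of the same rat, at 14 weeks (left) and 20 weeks (right), with 4 rats in colours, circles for nodule 1 and squares for nodule 2. At 20 weeks every nodule lies above 0 for Nqo1, Srxn1, Txnrd1, Gclc, Gclm and Gsr, from 0.17 for a Gsr value to 2.23 for an Nqo1 value, and at 14 weeks nodules lie on both sides of 0 for every gene.

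Nodule by nodule, 8 of 8 nodules at 20 weeks held more Nqo1, Srxn1, Txnrd1, Gclc, Gclm and Gsr than NT liver of their own rat. At 14 weeks it was 7 of 8 for Nqo1, Srxn1, Txnrd1 and Gclc, 5 of 8 for Gsr and 4 of 8 for Gclm. Nodule 2 of rat H21 was below its NT liver for all 6 genes, with 132.3 against 155.6 CPM of Nqo1 and 364.2 against 543.3 CPM of Gclm. For Nqo1 the higher nodule of a rat exceeded the lower 1.08- to 2.26-fold at 14 weeks and 1.5- to 2.5-fold at 20 weeks, for example 113 against 45.2 CPM in rat H25. For Hmox1 both nodules of a rat stayed within 1.3-fold of each other at both times. The labels number the nodules 1 and 2 and give no size or grade, so nothing more was compared between them.

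Across all 32 values of a rat and tissue, the log2 CPM of Nqo1, Srxn1, Txnrd1, Gclc, Gclm and Gsr correlated with each other at Pearson's r of 0.933 to 0.991 (15 pairs). These 6 were grouped after their values were seen, and the values share libraries and, between NT liver and nodules, rats. As deviations from the group means r was 0.872 to 0.967. Hmox1 correlated with the other 7 genes at 0.228 to 0.445, and its deviations from the group means at -0.339 to -0.185. For Osgin1 these ranges were 0.228 to 0.546 and -0.328 to 0.0964. Among 10059 other genes with a mean of at least 1 CPM, those most like the mean of the 8 genes were Hap1 (r = 0.984), Slc48a1 (0.983), Ddr1 (0.980), Ptgr1 (0.980) and Cd24 (0.979). Nqo1 and Srxn1 were each other's closest gene (0.991), as were Gclc and Txnrd1 (0.991), and the closest to Gclm was Ugdh (0.988). For Hmox1 it was Epb41l3 (0.830) and for Osgin1 Foxa2 (0.822).

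Among the regulators of the pathway, Nfe2l2 RNA stood at 126 ± 13.7 CPM (SD, n = 4) without DEN, 149 ± 9.76 CPM in NT liver and 140 ± 6.73 CPM in nodules at 14 weeks, and at 151.3 ± 15.99, 126.5 ± 11.79 and 113 ± 5.97 CPM at 20 weeks. At 20 weeks every nodule value lay below the no DEN values, by a log2 fold change of -0.45 (SE 0.10, edgeR adjusted p = 0.00433), short of the fold threshold. Keap1 stayed between 50.5 and 60.6 CPM as a mean of every group, with no call in any comparison with no DEN liver. Bach1 passed the nodule threshold in NT liver at 14 weeks with overlapping values (0.51, SE 0.17, edgeR adjusted p = 0.0271), and in nodules gave log2 fold changes of -0.0079 (SE 0.43) and 0.25 (SE 0.27). Of 9 regulators, 3 rose and 0 fell in nodules at each time, near the share of all genes that rose (23.9% at 14 and 23.6% at 20 weeks). The 3 were the small MAF genes, which pair with NRF2. Maff rose from 0.589 ± 0.128 to 12 ± 3.45 CPM (SD, n = 4) at 14 weeks and from 0.478 ± 0.0953 to 16.7 ± 4.27 CPM at 20 weeks, log2 fold changes of 4.33 (SE 0.27) and 5.10 (SE 0.25). Mafg rose by 0.67 and 0.82, and Mafk by 0.71 and 0.77. In NT liver Maff alone passed the strict threshold at 8, 14 and 20 weeks (1.77, 3.89 and 4.01), and Mafg (0.67 and 0.69) and Mafk (0.65 and 0.68) passed the nodule threshold at 14 and 20 weeks.

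Among 29 other known NRF2 targets, 24 rose and 1 fell in nodules at 14 weeks, and 23 rose and 1 fell at 20 weeks. Of all genes tested 2706 of 11316 (23.9%) rose and 1719 fell at 14 weeks, and 2642 of 11199 (23.6%) rose and 1705 fell at 20 weeks. The median log2 fold change of the list was 1.39 and 1.49, and that of all genes 0.0017 and 0.0070. In NT liver 8 of 28 tested, and 13 and 11 of 29, rose past the strict threshold at 8, 14 and 20 weeks and 0 fell, while 7.29%, 13.1% and 4.89% of all genes rose past it. With the replicate block 21 of 29 were higher in nodules than in NT liver at 20 weeks, and 0 lower, against 9.21% of all genes higher. Gstp1, the placental glutathione transferase used as a marker of rat preneoplastic foci, rose from 8.96 ± 1.20 to 2329 ± 651 CPM (SD, n = 4) in nodules at 14 weeks. Akr1b8, an aldo-keto reductase, rose from 1.34 ± 0.248 to 358 ± 182 CPM. Slc7a11, the cystine importer that feeds glutathione synthesis, had 1 to 6 counts per rat without DEN at 14 weeks and 1700 to 9626 in nodules, so that its fold rests on few control reads. Me1, a malic enzyme that supplies NADPH, fell by 0.82 and 0.99 on the log2 scale in nodules at 14 and 20 weeks.

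Of 13 antioxidant genes outside these lists, 0 rose and 3 fell in nodules at each time, where 15.2% of all genes fell, with a median log2 fold change of -0.40 and -0.28. Catalase (Cat) fell by 0.66 (SE 0.17) and 0.90 (SE 0.14), from 5037 ± 328 to 3241 ± 832 CPM at 14 weeks and from 5471 ± 415 to 2995 ± 327 CPM at 20 weeks (SD, n = 4). Gpx1, a glutathione peroxidase, fell by 0.93 and 0.97. The third was the mitochondrial thioredoxin reductase Txnrd2 at 14 weeks (-0.56, SE 0.08) and the quinone reductase Nqo2 at 20 weeks (-0.52, SE 0.10).

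**Figure D4:**
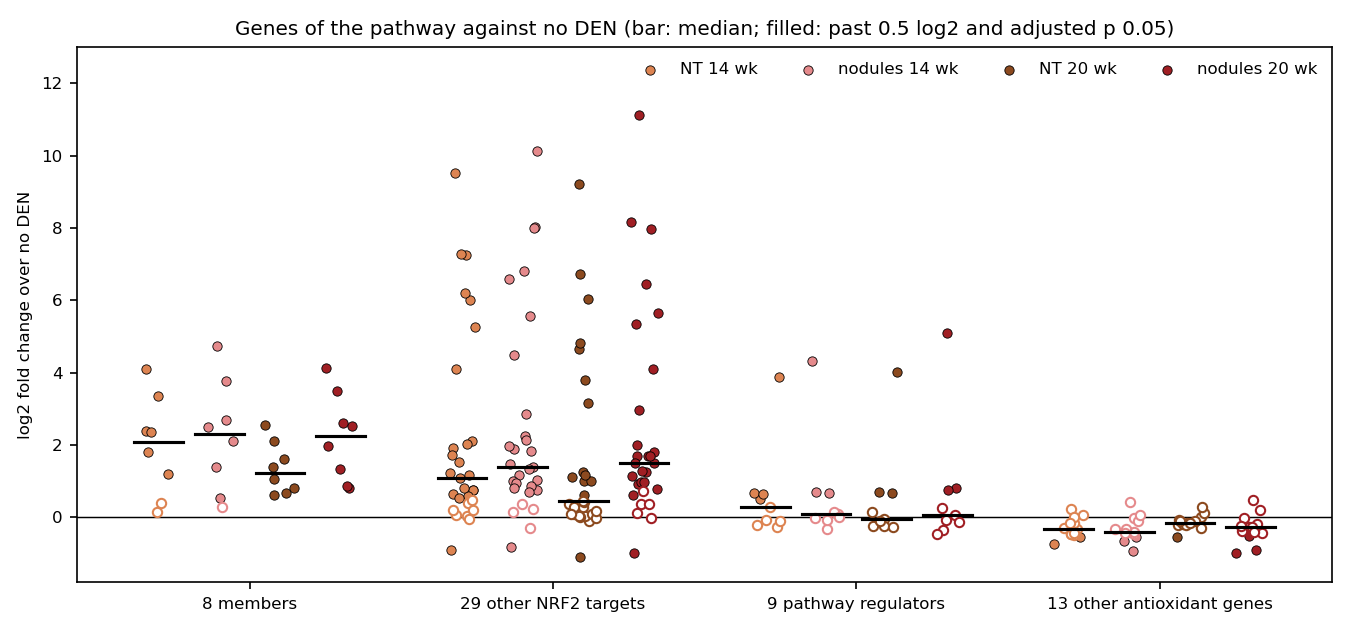
Log2 fold change over no DEN liver of the same week for the 8 genes, 29 other NRF2 targets, 9 pathway regulators and 13 other antioxidant genes, in NT liver and nodules at 14 and 20 weeks, with the median as a bar and filled points past the nodule threshold. In nodules at 14 weeks the medians are 2.31 for the 8 genes, 1.39 for the other targets, 0.08 for the regulators and -0.40 for the other antioxidant genes, and the highest points, Slc7a11, rest on few control reads.

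Markers of other cells were read beside the 6 genes, and their part in the levels of the 8 genes was not tested. The summed level of 5 genes of rat preneoplastic foci, which include Gstp1 of the target list, was 34.71 to 51.39 CPM over all no DEN rats, 523.7 to 2089 CPM in NT liver at 14 weeks and 1354 to 3860 CPM in nodules at 20 weeks. In nodules at 14 weeks Gstp1, at the mean given above, made up most of the mean sum of 2495 CPM. There the sum mainly reads an NRF2 target, and the remaining genes of the sum are not given singly. In NT liver at 14 weeks F06 had the lowest sum (523.7 CPM), and at 20 weeks F03 and H25 (648.9 and 585.1 CPM) stood below H26 and H28 (1302 and 1482 CPM), as for Nqo1. The sum of 5 bile duct markers was 16.19 to 23.63 CPM without DEN, 29.04 to 36.79 CPM in NT liver at 8 weeks, 38.6 to 86.59 CPM at 14 weeks and 34.34 to 55.08 CPM at 20 weeks, and 63.61 to 182.4 CPM in nodules.

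Other marker sums did not rank the groups as the 6 genes did. Over 5 endothelial genes the sum was 59.53 to 148 CPM without DEN, with group means of 178.5, 185.9 and 178.6 CPM in NT liver at 8, 14 and 20 weeks and 186.3 and 177.5 CPM in nodules at 14 and 20 weeks. Its members differed: Stab2, Lyve1, Vwf and Pecam1 rose past the nodule threshold in every comparison with no DEN liver. Kdr passed in none, with log2 fold changes of 0.23 and 0.45 in nodules at 14 and 20 weeks. Over 6 stellate cell genes the mean was already 409.1 CPM in NT liver at 8 weeks, 414.4 CPM at 14 weeks and 299.1 CPM in nodules at 20 weeks, against 168 to 257.5 CPM without DEN. Most of that sum was the collagen gene Col3a1 (307.4 of 436.4 CPM in nodules at 14 weeks). In nodules 4 of the 6 genes rose at both 14 and 20 weeks, by log2 fold changes of 2.63 and 2.33 (Col1a1), 1.83 and 1.14 (Acta2), 1.17 and 0.83 (Des) and 1.12 and 0.77 (Col3a1). With the replicate block Col1a1 was also higher in nodules than in NT liver at 20 weeks (1.29, SE 0.22, edgeR adjusted p = 0.00899). Pdgfrb had log2 fold changes of -0.50 and -0.39 in nodules at 14 and 20 weeks and Lrat of 0.30 and -0.02, neither past the nodule threshold. The sum of 4 lymphocyte genes was 1.824 to 3.341 CPM without DEN and 5.106 to 6.573 CPM in NT liver at 8 weeks, without overlap, where Cd3d (1.87), Cd8a (0.87) and Cd3e (1.01) rose. In nodules Cd3d rose by 1.47 at 14 and 1.25 at 20 weeks, and Cd3e by 1.38 at 14 weeks, and in NT liver at 14 weeks Cd3e rose by 1.32. These levels were low: at 14 weeks the means of Cd3d and Cd3e were 0.411 and 0.476 CPM in nodules and 0.149 and 0.178 CPM without DEN. Cd3d did not pass the filter on low counts in NT liver at 14 and 20 weeks. In nodules Cd8a, at higher levels, did not pass the nodule threshold at 14 (0.56) or 20 weeks (0.49), nor did Cd3e at 20 weeks (0.58). None of the markers in these lists was at 0 in a whole group.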

How the data were processed

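Messenger RNA of rat liver was sequenced in 40 libraries from 24 rats. The authors deposited, for each library, unnormalized counts per gene, which were used here. Per the labels and the study's methods, stranded read pairs were aligned with STAR 2.7.1a to the rat genome rn6 and counted on annotated exons with HTSeq, without pairs that aligned to several places. The submitters' processing notes also name DESeq2 1.22.2. Lines of the counting that name no gene (32.8% to 45.4% of the pairs in each file) were left out of library sizes.

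Both nodules' counts of a rat were added. Each comparison used only its own groups: genes were filtered with filterByExpr, scaled by TMM and tested in R 4.3.3 with edgeR 4.0.16 (robust quasi-likelihood fits, F test). P values are 2-sided and were adjusted after Benjamini-Hochberg across the genes tested. SE values are the log2 fold change over the square root of F. CPM are TMM-scaled over all 32 values of a rat and tissue, or over the 40 libraries where single nodules are given, and log2 CPM for correlations had a prior count of 2. Scripts were tested on simulated data.

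The members, gene lists and tests were chosen with earlier results of these data known. Beyond the members, Nfe2l2, Keap1 and Bach1 were named. In each list and at each time, so were up to 3 genes with the highest and 2 with the lowest negative log2 fold change among those past the nodule threshold in nodules. In the list of other antioxidant genes all of those past it fell, so 3 falling genes were named. The 5 genes closest to the mean of the members and the closest genes to single members were also named. The split of the members into Hmox1, Osgin1 and the other 6 was made after their values were seen. Labels give a rat number for each library, and NT liver and nodules with the same number come from the same rat. Their deviations from the group means correlated in every rat (r = 0.390 to 0.649), so the rat was used as replicate block in an alternative fit. The fit of nodules against NT liver without the block was kept as the main one. Libraries of a group differed beyond read sampling (in all 92 pairs, chi-square was 12.9 or more times its degrees of freedom). Intervals from counts alone are not given, since copies made by PCR are not independent molecules.

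Alternatives were RLE scaling, DESeq2 1.42.0, no filter on low counts, 1 fit to all 8 groups, omission of each rat in turn or of the rats numbered F, and either nodule alone. For nodules against NT liver the rat as replicate block was a further alternative. Promoter windows come from RefSeq on GRCr8, while the counts rest on rn6, and no coordinates were carried between the builds.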

Additional observations from a re-analysis of the deposited data

Results flagged for a closer look

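The effect of DEN on NT liver differed between 14 and 8 weeks for 6 genes by the interaction test of edgeR, which 8.96% of all genes passed. The log2 differences were 2.39 for Nqo1, 1.94 for Gclc, 1.997 for Gclm, 1.52 for Txnrd1, 2.02 for Srxn1 and 0.98 for Gsr. The count was 3 without NT rat F10, H21 or H22, and the calls lost with single rats left out are given above.

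Of 64 sets of 4 rats (8 genes in 8 groups), 5 held a rat that stood apart from the other 3 by Dixon's rule, which chance gives in about 1 of 20 sets. These were Nqo1 without DEN at 14 weeks, with 11.6 CPM in rat H09 against 4.61 to 5.21 CPM, and Hmox1 in the same group, with 25.4 CPM in the same rat against 36.6 to 38.3 CPM. The others were Txnrd1 without DEN at 8 weeks (83.8 CPM in H05 against 102 to 105 CPM), Gsr without DEN at 20 weeks (116 CPM in H15 against 90.4 to 94.7 CPM) and Osgin1 in nodules at 14 weeks (535 CPM in H22 against 379 to 401 CPM).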

How the results depend on the processing

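The counts of the 8 genes called in NT liver at 14 weeks (6) and in nodules against no DEN liver (7 and 8) stayed within 1.5 times under every alternative run. Those that did not were the following. In NT liver at 8 weeks the strict count of 2 was 1 in the fit with all 8 groups and 1 to 2 with single rats left out, and the count of 2 at the nodule threshold was 5 without the rats numbered F. In NT liver at 20 weeks the strict count of 5 was 3 with no filter on low counts and 1 to 5 with single rats left out, where fewer samples or more genes entered the test. Between nodules and NT liver at 20 weeks the count of 0 was 6 with the rat as replicate block, 6 with DESeq2 and 5 with all 8 groups. At 14 weeks the replicate block left 0. With single rats left out, the interaction count of 6 from 8 to 14 weeks was 3 to 6, and that of 0 from 14 to 20 weeks was 0 to 2. The cause of these moves was not tested otherwise.

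Direction turned only for log2 fold changes that had not passed. With nodule 2 alone these were, for nodules against NT liver, Gclc (0.33 to -0.0527) and Gclm (0.18 to -0.25) at 14 weeks and Osgin1 (0.06 to -0.0407) at 20 weeks, and, for the nodule effect of 20 against 14 weeks, Gclc (-0.17 to 0.42), Gsr (-0.07 to 0.31), Nqo1 (-0.60 to 0.11), Srxn1 (-0.29 to 0.15) and Txnrd1 (-0.15 to 0.29). Gclm there (0.11) became -0.51 with nodule 1 alone and -0.0841 without the rats numbered F. Without these rats Osgin1 became -0.0251 for nodules against NT liver at 20 weeks and 0.15 for the NT effect of 14 against 8 weeks.

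With single rats left out, the ranges that crossed 0 were -0.45 to 0.000503 (Gclc), -0.18 to 0.29 (Gclm), -0.34 to 0.11 (Gsr) and -0.40 to 0.0103 (Txnrd1) for the nodule effect of 20 against 14 weeks. For nodules against NT liver they were -0.0517 to 0.31 (Gclm, 14 weeks) and -0.0251 to 0.15 (Osgin1, 20 weeks). In NT liver they were -0.0121 to 0.22 (Hmox1, 8 weeks) and -0.31 to 0.0724 (Osgin1, effect of 14 against 8 weeks). In no DEN liver they were -0.0416 to 0.097 (Gclm), -0.15 to 0.20 (Osgin1) and -0.0462 to 0.0694 (Srxn1) for 14 against 8 weeks, and -0.21 to 0.14 (Osgin1) for 20 against 14 weeks. Of the members' log2 fold changes recomputed under the alternatives, 1319 kept their direction and their side of the threshold (the strict one for NT over no DEN liver), 57 lost their call, 19 gained one and 37 turned direction. Over all genes, the 1005 calls of the interaction from 8 to 14 weeks became 1529 with DESeq2 and 533 to 1870 with single rats left out, and the 565 strict calls in NT liver at 20 weeks 250 to 649. The 83 calls of the interaction from 14 to 20 weeks became 382 with DESeq2 and 31 to 408 with single rats left out, and the 10 of the nodule effect 29 with DESeq2 and 5 with nodule 1 alone. Between nodules and NT liver at 20 weeks 0 genes became 902 with DESeq2, 1096 with all 8 groups and 1693 with the replicate block, and at 14 weeks 35 with DESeq2. The lowest count of a member in a rat, 104, limits its precision by counting alone.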
